A study of Homo sapiens with 21 samples.

Results

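The genes described here encode 9 proteins that hepatic endoderm and liver secrete into blood: *AFP*, *APOA1*, *APOA2*, *APOB*, *APOE*, *TTR*, *SERPINA1*, *RBP4* and *FGB*. They were followed through the differentiation of human induced pluripotent stem cells (iPSCs) into cardiomyocytes (CMs). Members were chosen by gene symbol, with every transcript kept that the 6 deposited tables list under that symbol. This gave 49 listings of 30 transcripts, and the 9 genes were among 11851 genes listed in any table. The cells were PGP1, an established human iPSC line, and the poly-A RNA of 21 libraries was measured. Wild-type (WT) cells were sampled at 5 stages, with 3 libraries each. The stages were undifferentiated iPSCs, mesoderm (M), mesoderm of cardiac fate (CMes), progenitors of cardiac cells (CP) and beating CMs. The other 6 libraries were *UBE2B*-/- CMs, 3 from each of 2 lines that came from separate CRISPR-Cas9 editing experiments on the same PGP1 cells, each grown from picked colonies and sampled from wells that beat. *UBE2B* encodes the E2 ubiquitin-conjugating enzyme of the complex that places monoubiquitin on histone H2B. Differentiation began with CHIR99021, which activates Wnt signaling, followed by the Wnt inhibitor IWP4, in medium with B-27 minus insulin. Later in the differentiation the medium held B-27 in place of B-27 minus insulin. *UBE2B*-/- cells were plated in larger number than WT cells. After beating began, CMs were enriched with lactate in medium without glucose, so the CM libraries had passed a metabolic selection that the earlier stages had not. The 3 libraries of a group stem from separate rounds of differentiation, on different plates.

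Hepatic endoderm arises beside the cardiac mesoderm in the embryo, and signals from heart-forming cells take part in its induction. Its early products include α-fetoprotein (*AFP*), the fetal counterpart of albumin, and transthyretin (*TTR*), which carries thyroid hormone and also binds retinol-binding protein (*RBP4*), the blood carrier of vitamin A. APOB is the large structural protein of very-low-density and low-density lipoproteins, APOA1 and APOA2 are the main proteins of high-density lipoprotein, and APOE is the ligand through which remnant lipoproteins are taken up. *SERPINA1* encodes α1-antitrypsin, an inhibitor of neutrophil elastase, and *FGB* encodes the β chain of fibrinogen. Yolk sac endoderm makes many of the same proteins, and APOE is made by many cell types, so none of the genes marks hepatic cells alone.

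Each of the 6 tables summarised the libraries of the groups it compared, and none gave a value per library. The following quantities could be read from them for each listed transcript. The level is the geometric mean of the estimated counts over all libraries of a table, with both stages averaged, and it is not corrected for transcript length unless given per kilobase. The total SD is the standard deviation over all of those libraries on the natural-log scale, which takes in the difference between the stages. The replicate SD is the standard deviation between libraries of the same stage on that scale, with 4 residual degrees of freedom in each stage table of 6 libraries. A transcript was listed only where the study's own comparison had passed its limit, so a total SD above the replicate SD is a condition of being listed and not a result. For the same reason a gene that is not listed has no level here, and its absence does not show that it was equal between stages. No direction, fold change or test between stages is given. In bulk RNA, fewer cells of a type and less RNA per cell cannot be told apart.

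The 9 genes appeared in the tables at different steps. The table of iPSC and M listed 2 of them, *APOB* and *AFP*, with 1 transcript each. The table of M and CMes listed 4, all apolipoproteins, with 5 transcripts. The table of CMes and CP listed all 9, with 25 transcripts, and *RBP4* and *FGB* were listed there and in no other table. The table of CP and CM listed 5, with 16 transcripts: *APOA1*, *APOA2*, *APOE*, *TTR* and *SERPINA1*. *AFP*, *APOB*, *RBP4* and *FGB* were not listed between CP and CM. The table of WT and *UBE2B*-/- CMs held *APOE* for line 1 and none of the 9 genes for line 2. Of the 11851 genes listed in any table, 22.0% were listed between iPSC and M, 39.7% between M and CMes, 45.2% between CMes and CP and 66.5% between CP and CM. The tables of *UBE2B*-/- CMs held 20.6% for line 1 and 20.4% for line 2. The counts of 2 and 4 of 9 were near these shares, 9 of 9 was above and 5 of 9 was below. No test was made of these shares, since the genes were chosen with results of the same tables known.

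RefSeq gave 12 promoter windows for 6 of the 9 genes, of which 5 lie at the first base of a listed transcript. The 3 shown here, at AFP-202, APOA2-201 and FGB-201, are those of the 5 with an HNF1, HNF4 or forkhead motif and were chosen after the matches were seen. The windows hold the 250 bases upstream of that start on GRCh38.p14, 5′ to 3′ on the strand of the gene. *AFP* is drawn from chr4:73435971-73436220 on the plus strand, *APOA2* from chr1:161223629-161223878 on the minus strand and *FGB* from chr4:154562761-154563010 on the plus strand. Capitals mark matches to 5 motifs searched on both strands.
AFP: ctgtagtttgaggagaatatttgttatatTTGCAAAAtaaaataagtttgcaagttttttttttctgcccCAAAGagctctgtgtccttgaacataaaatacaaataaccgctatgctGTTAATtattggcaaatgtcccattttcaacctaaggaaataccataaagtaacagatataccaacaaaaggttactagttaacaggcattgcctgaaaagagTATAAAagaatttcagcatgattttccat
APOA2: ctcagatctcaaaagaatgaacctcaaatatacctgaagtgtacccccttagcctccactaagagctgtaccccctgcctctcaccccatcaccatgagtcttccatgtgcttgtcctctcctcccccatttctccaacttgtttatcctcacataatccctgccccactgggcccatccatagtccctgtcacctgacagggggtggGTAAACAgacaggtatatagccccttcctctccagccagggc
FGB: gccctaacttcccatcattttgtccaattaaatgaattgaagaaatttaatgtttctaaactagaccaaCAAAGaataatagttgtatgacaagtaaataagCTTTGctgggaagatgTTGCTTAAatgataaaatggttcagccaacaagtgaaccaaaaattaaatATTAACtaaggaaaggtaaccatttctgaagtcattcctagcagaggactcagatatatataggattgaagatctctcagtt
The motifs were the HNF1 motif GTTAAT, the forkhead core TGTTTAC, the HNF4 motif CAAAG, the C/EBP motif TTGCNNAA and the TATA box TATAAA. They name families of liver-enriched transcription factors, apart from the TATA box, where the general transcription machinery assembles. *AFP* held the C/EBP motif at −221, the HNF4 motif at −180, the HNF1 motif at −132 and a TATA box at −29, counted from the transcript start. *FGB* held the HNF4 motif at −181 and −148, the C/EBP motif at −132 and the HNF1 motif at −82. *APOA2* held the forkhead core at −42 and no other of the 5 motifs. The window of *RBP4* at the start of RBP4-201 held the C/EBP motif at −111 and a TATA box at −31, and that of *APOE* at the start of APOE-201 held none of the 5. Among 35116 RefSeq windows of the same length, 6.23% held the HNF1 motif, 2.98% the forkhead core, 42.1% the HNF4 motif, 9.05% the C/EBP motif and 10.7% the TATA box. These matches describe the letters of the windows and say nothing of binding in these cells. Neither window of *SERPINA1* lies at the start of a listed transcript, and 1 of them held the HNF1 motif at −76 and the HNF4 motif at −166, the other the HNF4 motif at −245. *APOA1*, *APOB* and *TTR* were named only, with no window.

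*APOB*, on chromosome 2 (GRCh38, 21001429 to 21044073, minus strand), was the one gene of the 9 listed in each of the first 3 stage tables. All listings were of 1 protein-coding transcript, APOB-201. Its level was 39.4 estimated counts over iPSC and M, 52.9 over M and CMes, and 1014 over CMes and CP. The last value was 19.2 times the one before it, with the CMes libraries shared by both tables and each table scaled separately. Each value averages both stages of its table, so this ratio is not a fold change between stages. The total SD was 0.99, 1.26 and 2.09 in the same order, and the replicate SD was 0.43, 0.54 and 0.43. The replicate spread of *APOB* was thus of like size in the 3 tables while the total spread was greatest in the table that held CP.

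*APOA1* lies on chromosome 11 (116835751 to 116837622, minus strand) and *APOA2* on chromosome 1 (161222292 to 161223631, minus strand). Both had means of a few counts over M and CMes. The total SD there was 2.49 for APOA1-202 and 2.44 for APOA2-201, so the mean need not be the level at either stage. APOA1-202 had a level of 7.53 estimated counts there and 583 over CMes and CP, and APOA2-201 had 4.12 and 359. The later levels were 77.5 and 87.0 times the earlier ones, across tables that were scaled separately and share the CMes libraries. These too are ratios of averages over both stages and not fold changes between stages. Over CMes and CP the total SD was 2.39 for APOA1-202 and 2.33 for APOA2-201, and the replicate SD was 0.54 and 0.22. Over CP and CM APOA2-201 was at 336 estimated counts, 0.937 times its level over CMes and CP. APOA1-202 was not listed there. The transcripts of *APOA1* that were listed were APOA1-201 and APOA1-204, the former at 105 estimated counts, against 141 over CMes and CP and 4.72 over M and CMes.

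The mean of APOA2-201 was close in both tables that hold CP, but its replicate spread was not. Its replicate SD was 0.22 over CMes and CP and 1.90 over CP and CM. The larger SD corresponds to a factor of 6.71 per SD about the mean of a stage, and the total SD over CP and CM was 2.83. A level of 336 is thus an average over widely spread libraries. The replicate variance pools both stages, at 0.049 over CMes and CP and 3.63 over CP and CM. The CP libraries enter both values, so the larger one lay mostly among the CM libraries, unless the separate scaling changed the spread at CP. Which library carried it cannot be told.

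*APOE*, on chromosome 19 (44905791 to 44909393, plus strand), had the highest level of the 9 genes in each of the 3 stage tables that listed it. APOE-201 was at 6495 estimated counts over M and CMes, 10026 over CMes and CP, and 4715 over CP and CM. Its total SD was 0.26 and 0.24 in the first 2 of these tables and 0.97 over CP and CM. The replicate SD was 0.08, 0.10 and 0.35. Between CMes and CP *APOE* had the smallest total SD among the highest transcripts of the 9 genes, where the other 8 lay between 2.09 and 4.13.

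*TTR* lies on chromosome 18 (31557009 to 31598833, plus strand) and was listed with 6 transcripts between CMes and CP and 5 between CP and CM. TTR-206 was the highest, at 414 estimated counts over CMes and CP and 2735 over CP and CM. Between CMes and CP its total SD was 4.07 and its replicate SD 0.65. Over CP and CM the total SD was 1.84 and the replicate SD 0.25, the smallest replicate SD among the highest transcripts of the 5 genes listed there. TTR-201 was at 50.9 and 783 estimated counts and TTR-205 at 45.2 and 373 in the same tables. These transcripts share sequence, so reads can be assigned to one or another of them, and their separate levels are uncertain.

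*SERPINA1*, on chromosome 14 (94376747 to 94390693, minus strand), had the largest ratio of levels between adjacent tables. SERPINA1-220 was at 11.7 estimated counts over CMes and CP and 1529 over CP and CM, 130 times as high across tables scaled separately. Both levels average the stages of their table and share the CP libraries, so 130 is not a fold change between stages. Between CMes and CP its total SD was 3.51 and its replicate SD 0.28. Between CP and CM the total SD was 2.24 and the replicate SD 1.29, which is a factor of 3.63 per SD about the mean of a stage. Inference error added little to that spread, since the technical variance that Kallisto's resampling gave was 0.212% of the replicate variance. For APOA2-201 that share was 12.6%.

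The remaining 3 genes had low means over both stages of the tables that listed them. *AFP*, on chromosome 4 (73431138 to 73456174, plus strand), had 3 transcripts between CMes and CP, AFP-201 at 44.3, AFP-204 at 24.0 and AFP-202 at 13.9 estimated counts. AFP-204 was also listed between iPSC and M, at 5.24 estimated counts. *FGB*, on chromosome 4 (154563011 to 154572807, plus strand), had FGB-201 at 42.3 and FGB-207 at 35.9. *RBP4*, on chromosome 10 (93591687 to 93601744, minus strand), had RBP4-201 at 17.7. Their low means went with wide total spreads between CMes and CP, at 4.08 for AFP-201, 4.13 for FGB-201 and 2.39 for RBP4-201. The replicate SD was 0.54, 0.94 and 1.09 in the same order, and that of RBP4-201 was the widest among the highest transcripts of the 9 genes in that table. With total spreads of this size the geometric mean is the level at neither stage. Summed over the listed transcripts, *FGB* was at 90.7, *AFP* at 82.2 and *RBP4* at 31.0 estimated counts, so *FGB* then stood above *AFP*. That step was smaller than the replicate SD of either FGB-201 or AFP-201, so the order of these genes is not settled.

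The other listed transcripts were minor ones. Between CMes and CP they were ENST00000629763.2 of *RBP4* at 13.3 estimated counts, APOA1-203 at 8.19, FGB-204 at 7.12, APOA2-203 at 5.49, APOA2-208 at 5.44, FGB-203 at 5.38, APOA2-205 at 4.60, TTR-203 at 3.96, TTR-202 at 3.89 and TTR-204 at 2.59. Between CP and CM they included APOA2-205 at 6.79, TTR-203 just below it, TTR-202 at 4.71, APOA2-208 at 4.13 and ENST00000625467.2 of *SERPINA1* at 3.84. All of these were far below the highest transcript of their gene except that of *RBP4*, and at a few counts each their levels carry little weight.

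**Figure D1:**
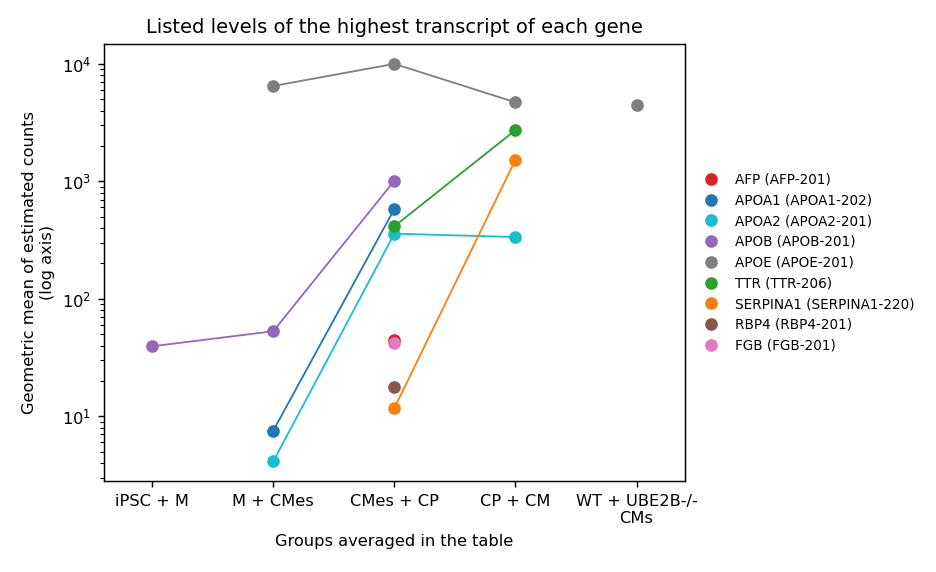
Geometric mean of estimated counts (vertical log axis) of 1 transcript per gene, the one with the highest listed level in any table. The groups averaged in each table are on the horizontal axis. *APOA1* over CP and CM and *AFP* over iPSC and M have no point, since other transcripts of these genes were listed there. Lines join the same transcript in adjacent stage tables, which share 1 stage and are scaled separately. *APOB*, *APOA1* and *APOA2* sit higher in the CMes and CP table than in the one before it, *TTR* and *SERPINA1* sit higher in the CP and CM table, and *APOE* stays between 4485 and 10026.

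**Figure D2:**
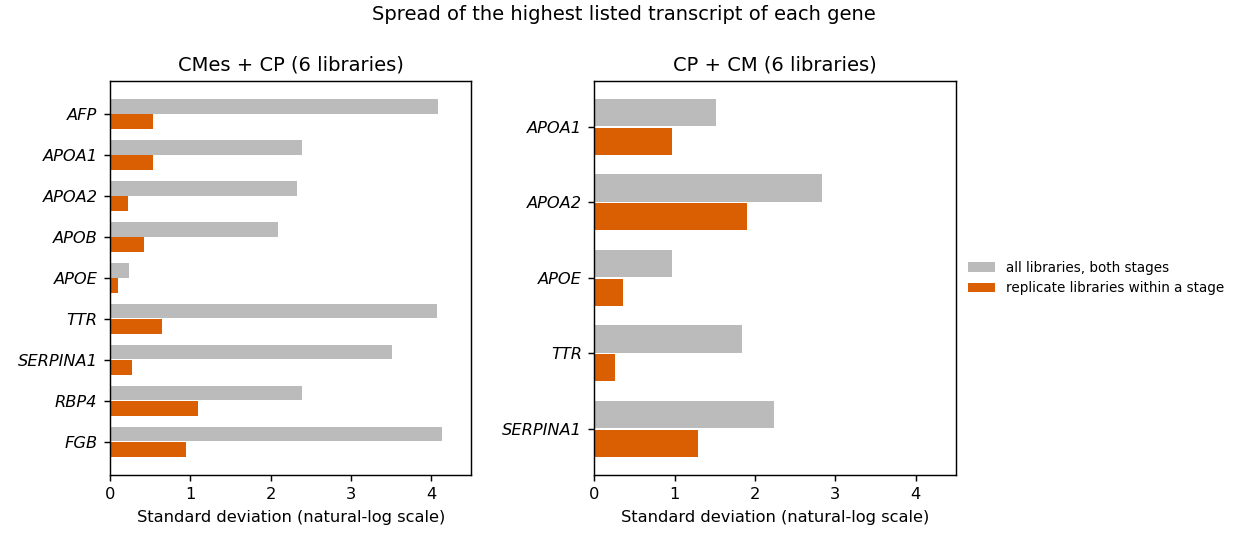
Standard deviation on the natural-log scale of the highest listed transcript of each gene over all 6 libraries of a table (grey) and between replicate libraries of a stage (orange). Over CMes and CP the replicate bars run from 0.10 for *APOE* to 1.09 for *RBP4*, and over CP and CM from 0.25 for *TTR* to 1.90 for *APOA2*.

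Levels of different genes were compared per kilobase of exonic length, with the highest transcript of each gene. Over CMes and CP the order of the levels was *APOE* at 8599 estimated counts per kilobase, *APOA2* at 757, *APOA1* at 626, *TTR* at 502, *APOB* at 71.8, *AFP* at 23.1, *RBP4* at 16.5, *FGB* at 11.6 and *SERPINA1* at 7.91. The long *APOB* transcript ranks the second by counts and below *TTR* per kilobase. The steps from *APOA2* to *APOA1* to *TTR* were smaller than the larger replicate SD of each pair, and so were those from *AFP* to *RBP4* to *FGB* to *SERPINA1*. Each level averages CMes and CP, and with total SDs from 0.24 for *APOE* to 4.13 for *FGB* the order need not hold at either stage. It also rests on 1 transcript per gene. Over CP and CM the order was *APOE* at 4043, *TTR* at 3315, *SERPINA1* at 1030, *APOA2* at 709 and *APOA1* at 116 estimated counts per kilobase. There, no step between neighbours exceeded the larger replicate SD of the pair. For *FGB* over CMes and CP and *APOA1* over CP and CM, the exonic length is that of another version of the transcript than the one quantified.

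The replicate spread was next set against what transcripts of like level showed in the same fit. Sleuth splits the replicate variance into a technical part and a biological part and draws a trend of the biological part over level. The ratio of a transcript's own biological variance to that trend is 1 where it varies between replicates as its mean over the table predicts. It is below 0 where the technical part is larger than the whole replicate variance. Over all listed transcripts 37.8% lay above the trend between CMes and CP and 33.7% between CP and CM, with median ratios of 0.65 and 0.49. These shares describe listed transcripts alone and are no test of the 9 genes.

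Between CMes and CP 10 of 25 listed transcripts of the 9 genes, or 40.0%, lay above the trend, which is near the share over all transcripts. Their median ratio was 0.46. The share was uneven over level. Of those at a mean natural log of at least 2, 10 of 18 were above the trend, with a median ratio of 1.40, against 40.5% of all transcripts at that level, and 0 of 7 below it. Counted by the highest transcript of each gene, 7 of 9 were above the trend, against 39.0% of all listed genes, the exceptions being *AFP* at 0.85 and *SERPINA1* at 0.14. TTR-206 had the largest ratio, 28.1, which ranked 10th of 7519. APOB-201 followed at 22.7 in place 23 and APOA1-202 at 13.3 in place 62. FGB-201 was at 5.03, APOA2-201 at 2.83, RBP4-201 at 2.19 and APOE-201 at 1.19. With the technical variance added to both terms of the ratio, TTR-206 fell to 4.06 (place 248), APOA1-202 to 1.74 (place 1290) and FGB-201 to 1.94 (place 1047), while APOB-201 stayed at 16.2 (place 6). *APOB* was thus near the top of the table on both scales, and *APOE* lay close to its trend on both, at 1.19.

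Between CP and CM 10 of 16 listed transcripts, or 62.5%, lay above the trend, with a median ratio of 1.17. At a mean natural log of at least 2, 8 of 11 were above it, with a median of 6.55, against 38.4% of all transcripts at that level. The highest transcripts of all 5 listed genes were above the trend. APOA2-201 had a ratio of 152, the third largest of 12982, and SERPINA1-220 had 139, the fourth. With the technical variance added to both terms SERPINA1-220 was at 108, the largest of all, and APOA2-201 at 7.59 in place 217. APOA1-201 was at 12.7 (place 257), APOE-201 at 8.41 (place 465) and TTR-206 at 4.80 (place 938). On the other scale these were at 3.90, 8.22 and 4.02. The same transcript could move far between the tables. SERPINA1-220 was at 0.14 between CMes and CP and at 139 between CP and CM. Its biological variance was 0.073 and 1.66 in these tables, and the trend at its mean was 0.531 and 0.0119. Both terms thus moved its ratio. APOA2-201 was at 2.83 and 152, or 1.89 and 7.59 with the technical variance added. The CP libraries are in both tables, so any library that stands apart at CP enters both, and no library can be singled out. For SERPINA1-220 and APOA2-201 the replicate SD was 0.28 and 0.22 between CMes and CP, against 1.29 and 1.90 between CP and CM. The lactate selection was applied between the earlier stages and CM, and its part in the replicate spread was not tested.

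**Figure D3:**
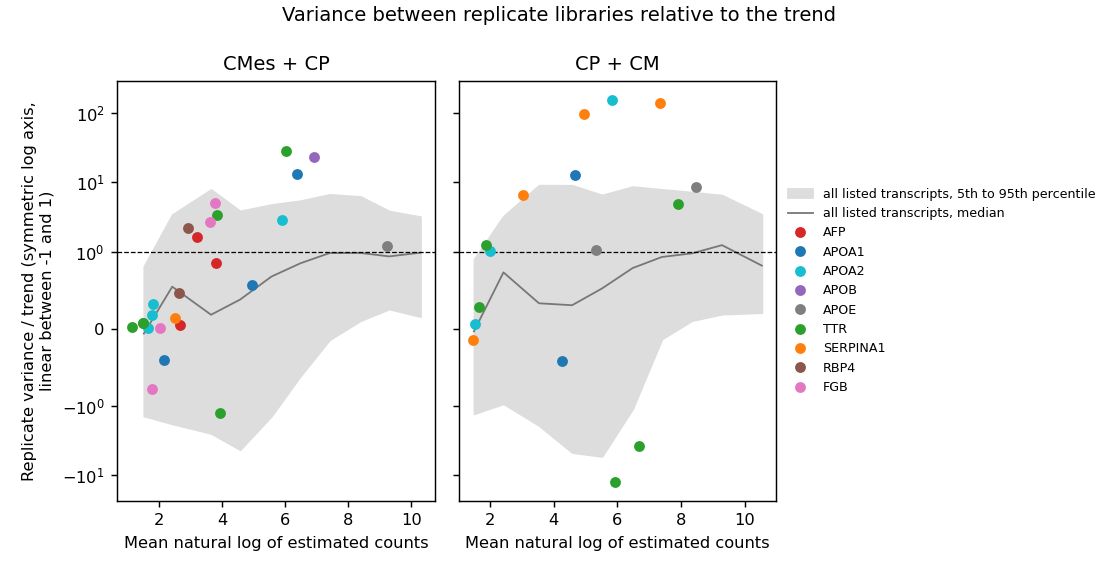
Ratio of the biological variance between replicate libraries to its trend (vertical symmetric log axis, linear between −1 and 1) against the mean natural log of estimated counts, for every listed transcript of the 9 genes in the CMes and CP table (left) and the CP and CM table (right). The grey band spans the 5th to 95th percentile of all listed transcripts at each level, and the dashed line marks a ratio of 1. *TTR*, *APOB* and *APOA1* lie above the band on the left, and transcripts of *APOA2*, *SERPINA1*, *APOA1* and *APOE* lie above it on the right, where TTR-201 and TTR-205 lie below it.

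Transcripts of the same gene did not share 1 ratio. In *TTR* between CP and CM, TTR-206 lay above the trend at 4.80, whereas TTR-201 was at −3.84 and TTR-205 at −12.4, the last in place 12848 of 12982. A ratio below 0 shows that resampling of the reads moved these counts more than the replicates did, so their replicate spread was not measurable apart from the assignment of reads. APOA1-204, at 69.1 estimated counts, was likewise at −0.42. In *APOE* the main transcript was at 8.41 and APOE-204, at 202 estimated counts, was at 1.07. In *SERPINA1* between CP and CM, ENST00000628155.2 was at 141 estimated counts with a replicate SD of 2.26 and a ratio of 96.7, the 10th largest in the table, and SERPINA1-207 was at 20.1 with a ratio of 6.55. With the technical variance added to both terms their ratios were 5.22 and 2.96. Transcripts were matched to GENCODE 44 without the version number, and 21 had the same version there as quantified. Of the 30 transcripts, 27 were found in GENCODE 44, 21 as protein-coding and 6 as retained introns. ENST00000628155, ENST00000625467 (*SERPINA1*) and ENST00000629763 (*RBP4*) were not, and where these are near-identical copies of an annotated transcript the reads may have been split between them, so their levels are uncertain.

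Lists of related genes were read in the same way, with the highest listed transcript of each gene. Between CP and CM 37.1% of all listed genes lay above the trend, with a median ratio of 0.62. Of 24 other hepatic secreted proteins 6 were listed, 4 of them above the trend, with a median of 17.5. The highest by level were *AGT*, the precursor of angiotensin, at 293 estimated counts and a ratio of 8.55, *AMBP*, the precursor of α1-microglobulin and bikunin, at 129 and 26.7, and *APOC1*, a small apolipoprotein, at 99.5 and 56.7. Of 17 hepatic and endoderm transcription factors 11 were listed, 9 above the trend, with a median of 15.2. *HNF4A* was at 535 estimated counts with a ratio of 33.5 and *PROX1* at 421 with 2.88. Of 11 epithelial and gut endoderm markers 8 were listed, 6 above the trend, with a median of 3.64. *KRT19*, a keratin of simple epithelia, was at 10916 with a ratio of 18.6, *EPCAM*, an epithelial adhesion protein, at 2045 with 39.7, and *CUBN*, an endocytic receptor that binds APOA1, at 436 with 3.52.

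The 17 genes of lipoprotein assembly and uptake had 6 listed between CP and CM, 3 above the trend, with a median of 2.24. Among them, *LRP1*, a receptor for APOE-bearing remnants, was at 8288 estimated counts with a ratio of 0.61, *VLDLR* at 1410 with 4.87 and *PLTP*, a phospholipid transfer protein, at 437 with 3.86. All 8 cardiomyocyte markers were listed between CP and CM, which gives a mean level over the libraries of both stages and not the level at CM alone. The highest were *MYH6*, a myosin heavy chain, at 20016 estimated counts with a ratio of 5.51, the giant sarcomere protein gene *TTN* at 19656 with 4.56 and *MYL7*, an atrial myosin light chain, at 15456 with 1.26. The 8 markers lay between 598 and 20016 estimated counts and all 8 were above the trend, with ratios from 1.26 to 6.67 and a median of 2.72. The median of the 5 secreted protein genes listed was 12.7, with ratios from 4.80 to 152. With the technical variance added to both terms these medians were 2.31 for the cardiomyocyte markers and 7.59 for the secreted protein genes. The other hepatic secreted proteins were then at 6.77, the transcription factors at 4.78 and all listed genes at 0.73. How far hepatic or epithelial cells among the CM or CP cultures account for these spreads was not tested, and no value per library was at hand to set one gene against another.

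**Figure D4:**
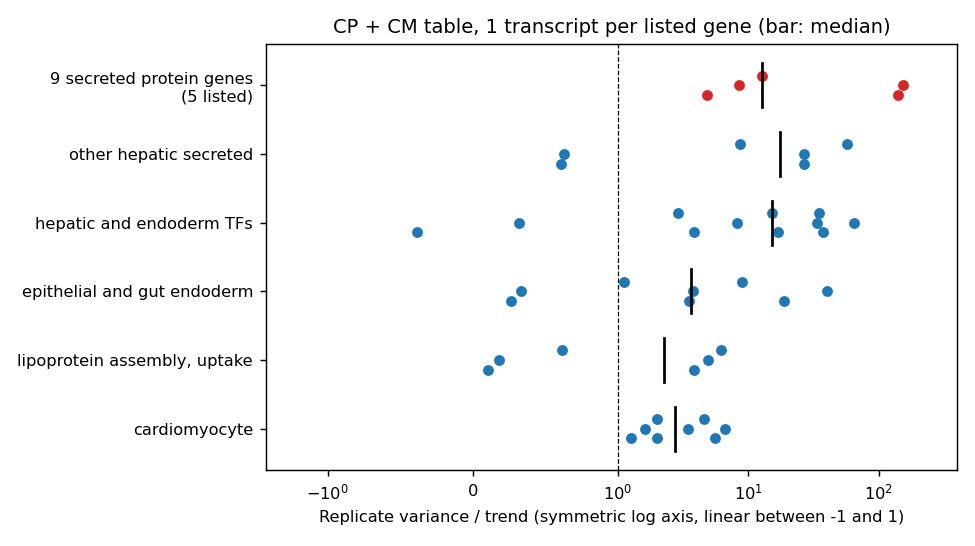
Ratio of replicate variance to trend in the CP and CM table (horizontal symmetric log axis, linear between −1 and 1), with 1 point for the highest transcript of each listed gene and a black bar at the median of each list. The 5 secreted protein genes (red) run from 4.80 to 152, the 8 cardiomyocyte markers from 1.26 to 6.67, and the dashed line marks a ratio of 1.

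The same 5 lists between CMes and CP had smaller median ratios. With the technical variance added to both terms that held for 4 of them, and the lipoprotein genes were at 1.82 against 1.62 between CP and CM. Of the other hepatic secreted proteins 8 of 24 were listed and 3 were above the trend, with a median of 0.34, against 39.0% of all listed genes and a median of 0.71. *APOC1* was at 732 estimated counts with a ratio of 2.03, *FGA*, the fibrinogen α chain, at 202 with 2.55 and *VTN*, vitronectin, at 190 with 7.60. The transcription factors had 13 of 17 listed and 8 above the trend, with a median of 1.61. *GATA4*, which acts in heart and endoderm alike, was at 1343 with a ratio of 3.26, *FOXA2* at 1163 with 2.21 and *SOX17* at 858 with 18.7. The epithelial and gut endoderm markers had 9 of 11 and 6 above the trend, with a median of 1.76, and the keratin genes *KRT8*, *KRT18* and *KRT19* were the highest at 33325, 26736 and 16180 estimated counts with ratios of 0.20, 1.01 and 1.76. The genes of lipoprotein assembly and uptake had 7 of 17 and 5 above the trend, with a median of 2.03. *LRP1* was at 8545 with a ratio of 1.83, *ABCA1*, the transporter that loads APOA1 with lipid, at 1490 with 2.53 and *LRP2* at 431 with 2.72. The cardiomyocyte markers had 8 of 8 and 4 above the trend, with a median of 0.77, and *TTN* was at 2486 with a ratio of 1.71, *MYL7* at 1422 with 8.80 and *MYH6* at 372 with 18.1. *FGA* and *FGB* encode chains of 1 protein. FGB-201 was at 42.3 estimated counts with a total SD of 4.13, where the *FGA* transcript was at 202 with a total SD of 1.33.

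In the comparison of *UBE2B*-/- with WT CMs *APOE* was the only one of the 9 genes listed, and for line 1 alone. APOE-201 was at 4485 estimated counts over all 9 libraries of that fit, which held the WT and both mutant lines with 6 residual degrees of freedom. Its total SD was 0.59 and its replicate SD 0.40, a factor of 1.49 per SD about the mean of a group. The ratio to the trend was 5.90, in place 128 of the 3088 transcripts listed for line 1, where 45.0% lay above the trend. The lines shared 1 fit, since all 1992 transcripts listed for both had the same mean and variances in each table. No value per group was at hand for *UBE2B* itself, so the mutant labels were not checked by the targeted gene. Whether *APOE* differed between the lines was not tested, and its absence for line 2 does not show that it was equal to WT there. The other 8 genes had no level in these tables.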

How the data were processed

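RNA-seq libraries of PGP1-derived cells were analysed from 6 deposited tables. The authors removed poor reads using FASTX-Toolkit, estimated transcript counts with Kallisto on hg38 and fitted each comparison in Sleuth. The deposited means are averages, over the libraries of a table, of the natural log of scaled estimated counts plus 0.5. The deposited variances are scores in squared natural-log units (total, technical, biological and its trend). The tables also hold the p-value, q-value, effect and standard error of the authors' comparisons, which were not used. There were 0 columns of per-sample values, so depth is unknown and no counting interval or limit is given.

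Groups came from the sample labels. Levels are the exponent of the mean less 0.5. The replicate variance is the sum of the biological and technical variance. Ratios to the trend were ranked among all listed transcripts of a table. Transcript types, lengths and gene coordinates came from GENCODE 44 (GRCh38), and promoters from RefSeq (GRCh38.p14), where 6 of the 9 genes had a window. Scripts used Python 3.11.15, pandas 2.3.3 and matplotlib 3.10.9 and were tested on simulated data. No test between groups was made.

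All 9 genes are named with every listed transcript. From the 5 lists read in the tables of CMes and CP and of CP and CM, the 3 genes with the highest mean were named, apart from 1 transcription factor that is not reported here. From the other marker lists single genes were named after their values were seen. The highest listed transcript speaks for a gene. The genes and lists (other hepatic secreted proteins, hepatic and endoderm transcription factors, lipoprotein assembly and uptake, epithelial and gut endoderm markers, and markers of cardiomyocytes, pluripotent cells, mesoderm, smooth muscle and fibroblasts, and endothelium) were chosen with earlier results of these data known. Alternatives were matching by transcript identifier, no pseudocount, sums over transcripts, technical variance added to both terms of the ratio, a minimum mean natural log of 2, and 1 transcript per gene.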

Additional observations from a re-analysis of the deposited data

How the results depend on the processing

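No paired analysis was possible because the tables hold no value per library, although the labels give the groups the same replicate numbers. For the same reason no replicate could be left out. Between CP and CM the count of transcripts above the trend fell from 10 to 5 with 1 transcript per gene, since fewer transcripts were then counted. It was 8 at a mean natural log of at least 2, and between CMes and CP the counts were 7 and 10 under these settings against 10. Adding the technical variance to both terms leaves these counts as they were by construction, but among the highest transcripts it lowers these ratios by over 1.5 times, between CP and CM for APOA2-201 (152 to 7.59) and APOA1-201 (12.7 to 3.90) and between CMes and CP for TTR-206 (28.1 to 4.06), APOA1-202 (13.3 to 1.74), FGB-201 (5.03 to 1.94) and APOA2-201 (2.83 to 1.89). Matching by transcript identifier gave 46 listings against 49. Subtracting no pseudocount moved none of 21 gene levels by more than 1 replicate SD. Summing the listed transcripts moved 2 of 21 by more, *AFP* over CMes and CP to 82.2 and *TTR* over CP and CM to 3902 estimated counts. Within 1 replicate SD it moved *FGB* from 42.3 to 90.7, *RBP4* from 17.7 to 31.0, *APOA1* over CP and CM from 105 to 174 and *APOA1* over M and CMes from 7.53 to 12.2. Unknown depth limits every level of a few counts, and the pooled replicate variance does not by itself give the stage or library that carries a wide spread.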

Other observations

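Markers of other cell types were read from the same tables, with the highest listed transcript of each gene. Between CP and CM 4 of 5 pluripotent markers were listed, 1 of them above the trend, with a median ratio of 0.59. *LIN28A*, an RNA-binding protein of pluripotent and early progenitor cells, was at 1175 estimated counts with a replicate SD of 1.08, a total SD of 3.76 and a ratio of 18.8, in place 146 of 12982. The 4 smooth muscle and fibroblast markers were all listed, 3 above the trend, with a median of 3.88, and the collagen gene *COL3A1* had the highest level at 12883 with a ratio of 5.37. Of 4 mesoderm markers *EOMES* was listed, at 27.9 estimated counts with a ratio of −1.24. Of 3 endothelial markers *KDR*, a receptor for vascular endothelial growth factor, was listed, at 1585 with a ratio of 14.3.

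Between CMes and CP 4 of 5 pluripotent markers were listed and all 4 lay above the trend, with a median of 3.24. All 4 mesoderm markers were listed, 2 above the trend, with a median of 1.68. The smooth muscle and fibroblast markers had 3 of 4 listed and 3 above the trend, with a median of 7.40, and 0 of 3 endothelial markers were listed. In the tables of *UBE2B*-/- CMs *SERPING1*, the complement C1 inhibitor, was the 1 listed gene of the 24 other hepatic secreted proteins, for both lines, at 1041 estimated counts with a ratio of 7.57. Of the 11 epithelial and gut endoderm markers 3 were listed for each line. *KRT8* and *KRT18* were listed for both, at 993 and 183 estimated counts with ratios of 2.37 and 1.36. These are ENST00000549176.1 and ENST00000549078.5, other transcripts than those given for CMes and CP, so the levels are not comparable. *AMN* was listed for line 1 at 3.97 with a ratio of 1.07. The epithelial gene *EPCAM* was listed for line 2 at 60.3 estimated counts, with a replicate SD of 1.51 and a ratio of 6.72. That is ENST00000405271.5, another transcript than the ENST00000263735.8 given for CP and CM.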
